A study of Homo sapiens with 12 samples.

Results

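The genes described here are 42 genes of glucose use and of the response to low oxygen in HK-2 cells, a human cell line made immortal from the epithelium of the kidney's proximal tubule. They were taken as a named list, which was chosen with earlier results of these data known. Of these, 24 encode glucose transporters, glycolytic enzymes and the kinases that set glycolytic flux, and 18 encode hypoxia-inducible factors (HIF), their regulators or other targets of HIF. Of the 42, 41 had a probe set that names 1 gene, among 19775 such genes on the array, and 39 of the 10784 genes tested were members of the list. A gene was tested if its brightest probe set naming only that gene read 4 or more (log2) on 3 or more arrays. ALDOC, an aldolase, and STC1, a stanniocalcin, stayed below that level on all 12 arrays, between 2.29 and 2.37 and between 2.10 and 2.14. CA9 was not analysed here.

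The study set cultures given the treatment that the labels call Fk against cultures given the control vehicle, 12 h or 48 h after treatment, with 3 Affymetrix arrays in each of the 4 groups. The 4 groups are Fk at 48 h, control vehicle at 48 h, Fk at 12 h and control vehicle at 12 h. The labels do not expand the name Fk, and its dose is not given in the sources used here. All groups shared the cell line, plating 24 h before treatment (700000 cells and 2 ml of medium in a well), a confluency of about 90% at treatment, 5 mM glucose and 5 µg/ml insulin. The medium also held EGF, hydrocortisone, transferrin, selenite, a glutamine source and antibiotics. No oxygen level is given in the sources used here. By the labels a group's arrays are biological replicates, but nothing says that they came from separate cultures, so p-values measure the spread between these samples, which may be technical. Values are the authors' GCRMA values on the log2 scale, so a difference of 1 is a factor of 2, and levels of different probe sets cannot be set against each other.

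Glycolysis splits glucose into pyruvate, which lactate dehydrogenase turns into lactate where it does not enter the mitochondria. HIF is a pair of proteins whose alpha subunit, HIF-1α (HIF1A) or HIF-2α (EPAS1), is hydroxylated by the prolyl hydroxylases EGLN1 and EGLN3 and then degraded when oxygen is present. When the alpha subunit is spared, HIF binds DNA at sites with the core ACGTG or GCGTG and raises the transcription of glucose transporters, glycolytic enzymes, VEGFA and many other genes. The alpha subunits are controlled mainly as proteins, which arrays do not measure. Proximal tubule cells in the kidney live mostly on fatty acids and make glucose rather than burn it, whereas tubule lines in culture rely more on glycolysis.

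The labelled cell type was checked against 10 proximal tubule markers with a probe set. PAX8, a transcription factor of the kidney lineage, was at 9.96 or more on all 12 arrays, but AQP1, ANPEP, CUBN, LRP2, SLC34A1, SLC22A6 and SLC5A2 stayed under 4 on all of them, and GGT1 and MME reached 4 on 1 array each. All 5 epithelial markers were at 4 or more on every array and all 3 leukocyte markers were under 4. Of 4 endothelial markers CDH5, VWF and KDR were under 4 on every array, and PECAM1 ranged from 3.37 to 4.59, reaching 4 on 6 arrays. PECAM1 differed by -0.55 between 48 h and 12 h in Fk cultures (adjusted p 0.0565; -0.68 and 0.0305 without Fk at 12 h replicate 3) and by -0.12 in control cultures (adjusted p 0.677). Of 4 fibroblast markers, COL1A1 and DCN were readable on every array, and COL1A2 and PDGFRB stayed under 4 on all of them. The summed log2 level of the 4 was 21.86 to 23.09 in Fk and 21.43 to 22.83 in control cultures at 48 h, and 22.89 to 23.57 in Fk and 21.78 to 23.30 in control cultures at 12 h. Their part in any result below was not tested, and in RNA of whole cultures fewer cells of a type and less RNA per cell cannot be told apart. The array of Fk at 12 h replicate 3 stood apart. It correlated with its group mates at 0.942 and 0.946, against 0.994 between those mates and 0.961 to 0.994 within the other groups. On it 15.4% of genes lay more than 1 log2 unit from the mean of the other two arrays, against 0.287% to 6.05% on the other arrays. A control probe set for 28S ribosomal RNA read 14.38 on it, against 8.50 to 10.29 elsewhere. The main results that rest on it are therefore given with and without it.

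The start regions of 6 members are shown for reference. Of these, SLC2A1, STC2, DDIT4 and EPAS1 were higher at 48 h than at 12 h, and PKM was lower. LDHA is shown only because its window has the most matches to ACGTG among the members, and its changes over time did not pass in the main fit. Each window runs from 250 bases before the gene's start to 50 bases after it, 300 bases in all, from RefSeq on GRCh38.p14, and reads 5′ to 3′ on the gene's strand. Capitals mark ACGTG and GCGTG, the 2 forms of the HIF core, and their reverse complements CACGT and CACGC.
SLC2A1, chr1:42958819-42959118, minus strand: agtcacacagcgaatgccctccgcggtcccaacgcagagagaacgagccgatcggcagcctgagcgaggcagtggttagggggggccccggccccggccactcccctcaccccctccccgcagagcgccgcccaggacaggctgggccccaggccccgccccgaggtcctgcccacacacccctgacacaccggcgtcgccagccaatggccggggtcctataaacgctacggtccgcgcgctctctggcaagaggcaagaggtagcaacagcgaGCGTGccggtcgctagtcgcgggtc
STC2, chr5:173328365-173328664, minus strand: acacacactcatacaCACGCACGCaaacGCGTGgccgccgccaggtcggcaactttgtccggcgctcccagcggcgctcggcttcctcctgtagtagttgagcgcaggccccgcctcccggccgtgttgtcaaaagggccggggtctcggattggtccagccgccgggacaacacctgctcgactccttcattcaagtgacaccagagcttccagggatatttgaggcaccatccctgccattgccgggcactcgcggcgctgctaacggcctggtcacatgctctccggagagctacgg
DDIT4, chr10:72273674-72273973, plus strand: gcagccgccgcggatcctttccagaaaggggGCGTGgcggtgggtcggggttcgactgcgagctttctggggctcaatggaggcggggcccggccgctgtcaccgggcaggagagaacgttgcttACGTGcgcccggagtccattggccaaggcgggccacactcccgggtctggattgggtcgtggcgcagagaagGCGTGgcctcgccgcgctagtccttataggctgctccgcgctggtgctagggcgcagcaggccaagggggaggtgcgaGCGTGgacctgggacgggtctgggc
EPAS1, chr2:46297157-46297456, plus strand: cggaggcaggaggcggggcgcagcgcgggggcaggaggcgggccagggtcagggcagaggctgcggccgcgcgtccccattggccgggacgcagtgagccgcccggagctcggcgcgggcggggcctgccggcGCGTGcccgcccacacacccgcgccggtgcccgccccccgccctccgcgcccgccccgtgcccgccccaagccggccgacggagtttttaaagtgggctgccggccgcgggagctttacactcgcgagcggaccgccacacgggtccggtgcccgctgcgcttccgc
PKM, chr15:72231141-72231440, minus strand: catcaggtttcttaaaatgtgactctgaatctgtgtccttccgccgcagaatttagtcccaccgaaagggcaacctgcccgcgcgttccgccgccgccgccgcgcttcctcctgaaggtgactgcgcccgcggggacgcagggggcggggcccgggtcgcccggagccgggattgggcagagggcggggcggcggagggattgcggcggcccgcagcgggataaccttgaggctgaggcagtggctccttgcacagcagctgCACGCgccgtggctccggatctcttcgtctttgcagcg
LDHA, chr11:18394313-18394612, plus strand: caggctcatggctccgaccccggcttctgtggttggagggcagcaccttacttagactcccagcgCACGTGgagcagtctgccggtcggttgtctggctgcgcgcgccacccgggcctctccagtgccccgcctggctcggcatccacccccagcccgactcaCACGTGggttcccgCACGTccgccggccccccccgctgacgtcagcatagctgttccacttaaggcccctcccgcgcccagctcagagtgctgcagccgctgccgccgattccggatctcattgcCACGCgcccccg
The palindrome CACGTG holds ACGTG on both strands and counts as 2 matches, and in STC2 a pair of CACGC matches overlap by 1 base. The LDHA window has 5 matches to ACGTG and 1 to GCGTG. DDIT4 has 1 and 3, STC2 has 3 to GCGTG, and SLC2A1, EPAS1 and PKM have 1 to GCGTG each. A window was at hand for 34 of the 39 tested members. ACGTG or GCGTG stood in 76.5% of these 34 windows, against 64.7% of 8921 windows of tested genes and 48.4% of all 27305 windows. The share was 71.4% of 21 glycolysis windows and 84.6% of 13 HIF windows. The median GC content was 69.7% in the member windows, 65.7% in those of tested genes and 58.3% in all windows. A match describes the letters in the window and is not a binding site.

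The first comparison asks what Fk did to these genes at 48 h. SLC2A1, which encodes the glucose transporter GLUT1, had the smallest p among the members. It read 9.88, 9.85 and 10.11 in Fk cultures, against 8.98, 8.97 and 8.94 in control cultures. Every Fk array was thus above every control array. The means were 9.95 ± 0.14 in Fk and 8.96 ± 0.02 in control cultures (SD, n = 3 each). The difference was +0.98 (95% interval 0.67 to 1.30), or 1.98-fold, with an unadjusted p of 3.49e-05 in limma, but its p adjusted over all genes was 0.0976. The start region of SLC2A1 is among those shown above.

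No member passed the adjusted threshold of 0.05 at 48 h, and neither did any other gene: limma called 0 of 10784, or 0%, with 559 genes, or 5.18%, at an unadjusted p under 0.05. Of the members, 5 of 39 had an unadjusted p under 0.05, and in all 5 Fk cultures were higher. In 10 members every Fk array was above every control array, against 6.14% of all genes, and in 1, the lactate dehydrogenase subunit gene LDHB, every Fk array was below, against 4.02%. A difference above 0 was found in 21 of 23 glycolysis members and 13 of 16 HIF members, against 53.8% of all genes. The median difference was +0.21 over the glycolysis members and +0.26 over the HIF members, against +0.02 over all genes. When arrays were weighted in limma by their agreement with the fit, SLC2A1 and CA12 passed at 48 h (adjusted p 0.0144 and 0.0481). In replicate order the weights at 48 h were 0.492, 3.62 and 0.4 in Fk and 0.624, 1.84 and 0.409 in control cultures. Replicate 2 thus weighed most in both groups. Over all alternatives run the adjusted p was 0.0144 to 0.73 for SLC2A1 and 0.0481 to 1.0 for CA12.

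Among the genes of glucose entry and the first steps, HK2, an inducible hexokinase that traps glucose as its phosphate, read 9.34, 9.41 and 9.75 in Fk cultures, against 8.86, 8.85 and 8.76 in control cultures at 48 h. These arrays did not overlap either, and the difference was +0.68 (interval -0.04 to 1.40, adjusted p 0.976). The fainter probe sets of HK2 differed by +0.06 and -0.11, so its probe sets disagreed. HK1, the constitutive hexokinase, differed by little, with means of 10.78 ± 0.13 in Fk and 10.75 ± 0.27 in control cultures (SD, n = 3 each). PFKL, a phosphofructokinase gene, read 8.34, 8.38 and 8.35 in Fk cultures, against 8.11, 7.79 and 8.35 in control cultures, a difference of +0.27, and its relatives PFKM and PFKP differed by +0.12 and +0.21. The arrays of all 3 overlapped. SLC2A3, which encodes the transporter GLUT3, ranged from 9.75 to 10.74 in Fk and from 9.89 to 10.12 in control cultures, and its probe sets may also read the near-identical SLC2A14.

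PDK1 encodes a kinase that shuts the pyruvate dehydrogenase complex and so keeps pyruvate from the mitochondria. It read 9.23, 9.34 and 9.78 in Fk cultures, against 9.06, 8.81 and 9.03 in control cultures at 48 h, without overlap. The difference was +0.48 (interval 0.12 to 0.85, adjusted p 0.772). ENO2, an enolase, read 9.95, 9.79 and 10.43 in Fk cultures, against 9.48, 9.31 and 9.77 in control cultures, a difference of +0.53 (adjusted p 0.964). Here the Fk arrays were the higher ones by a narrow margin. With the same-numbered Fk and control arrays of each time blocked together in limma, the interval of ENO2 was 0.24 to 0.83 (adjusted p 0.309). The other enolase, ENO1, was at 14.08 ± 0.12 in Fk and 14.09 ± 0.17 in control cultures (SD, n = 3 each). ALDOA, an aldolase, read 13.28, 13.31 and 13.27 in Fk cultures, against 12.90, 12.72 and 13.32 in control cultures, a difference of +0.31. Its highest control array lay above the Fk arrays. The remaining enzymes from TPI1 to LDHA differed by -0.02 to +0.15. LDHB was at 14.97 to 15.00 in Fk and 15.04 to 15.09 in control cultures, a difference of -0.08.

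**Figure D1:**
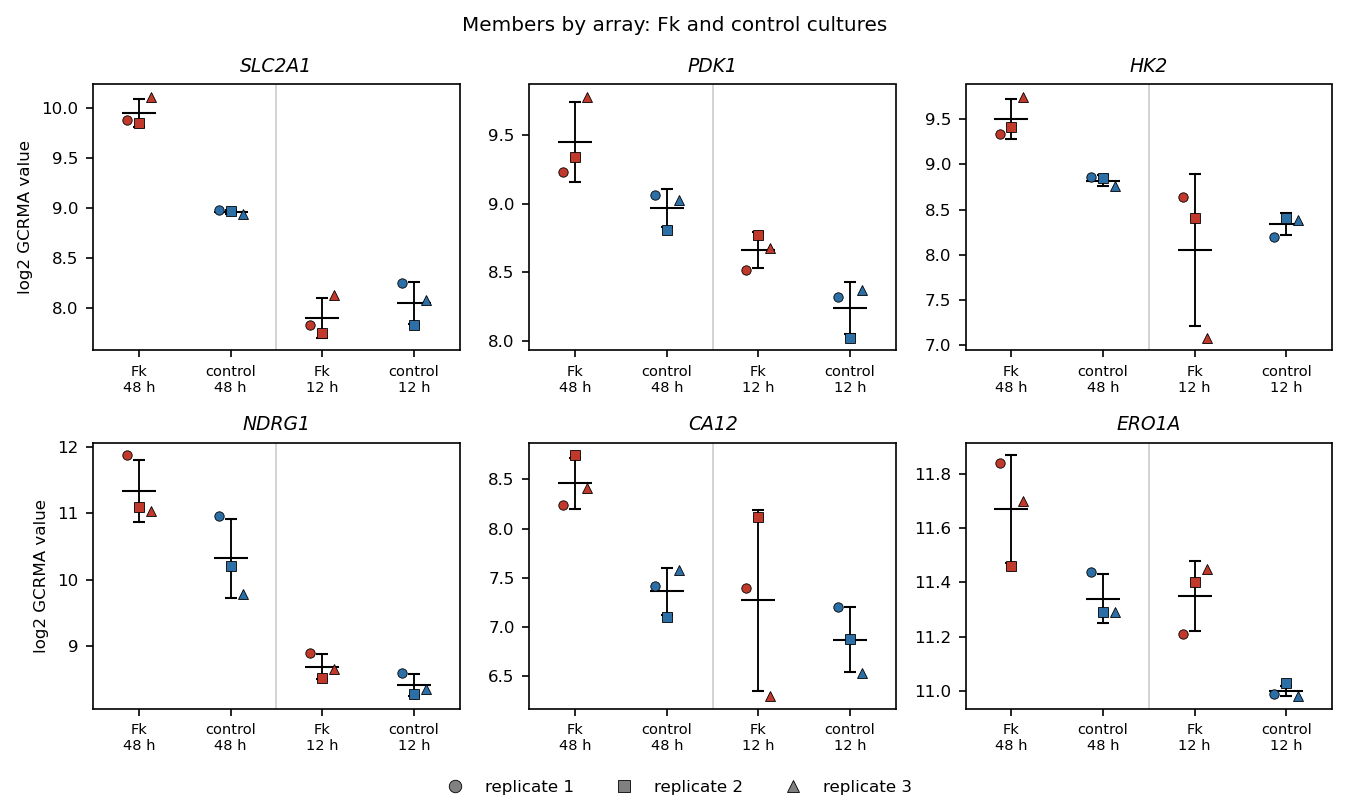
Log2 GCRMA values of 6 members on each array, with the groups on the x axis in pairs of Fk and control cultures at 48 h and then at 12 h; points are arrays, and the black bars are the mean and SD of 3 arrays. SLC2A1 lies between 9.85 and 10.11 in Fk and between 8.94 and 8.98 in control cultures at 48 h, and the groups overlap at 12 h.

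Of the HIF targets at 48 h, NDRG1, a gene that stress and low oxygen induce in many cells, read 11.88, 11.10 and 11.03 in Fk cultures, against 10.96, 10.20 and 9.79 in control cultures. The groups did not overlap, though the lowest Fk array and the highest control array lay close together, and replicate 1 was the highest array in both groups. The difference was +1.02 (interval 0.36 to 1.68), or 2.03-fold, with an adjusted p of 0.673. With the same-numbered Fk and control arrays of each time blocked together in limma, the interval of NDRG1 was 0.77 to 1.28 (adjusted p 0.0808). The same blocks gave SLC2A1 an adjusted p of 0.142, so neither passed. CA12, a carbonic anhydrase of the cell surface, read 8.24, 8.75 and 8.41 in Fk cultures, against 7.41, 7.10 and 7.58 in control cultures. The lowest Fk array stood above the highest control array, and the difference was +1.10 (interval 0.25 to 1.95, adjusted p 0.779). All 5 of its probe sets that were readable were higher in Fk cultures, by 1.10 to 2.02 log2 units.

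ERO1A encodes an oxidase that forms disulfide bonds in the endoplasmic reticulum. It read 11.84, 11.46 and 11.70 in Fk cultures, against 11.44, 11.29 and 11.29 in control cultures at 48 h, a difference of +0.32 (adjusted p 0.893) with no overlap. BNIP3 and BNIP3L, which direct mitochondria to autophagy, and DDIT4, an inhibitor of mTORC1, also had every Fk array above every control array. BNIP3 read 11.97, 11.98 and 12.11 in Fk cultures, against 11.84, 11.50 and 11.90 in control cultures, a difference of +0.27. BNIP3L read 12.10, 11.89 and 11.88 in Fk cultures, against 11.87, 11.69 and 11.56 in control cultures, a difference of +0.25. DDIT4 read 13.50, 13.58 and 13.53 in Fk cultures, against 13.39, 13.06 and 13.35 in control cultures, a difference of +0.27. In all 3 the margin between the groups was narrow. The other members gave no such separation. VEGFA, the vascular growth factor, differed by -0.04, STC2, a stanniocalcin, by +0.27, and ADM, which encodes adrenomedullin, by +0.58 with overlapping arrays. Neither HIF alpha subunit gene passed: HIF1A differed by -0.12 (interval -0.42 to 0.19) and EPAS1 by -0.04. EGLN1 differed by +0.17 and EGLN3, near the lower end of the readable range, by +0.27.

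At 12 h no member passed either. Limma called 0 of 10784 genes, or 0%, with 724, or 6.71%, at an unadjusted p under 0.05, among them 3 members: ERO1A, PDK1 and ALDOA. A difference above 0 was found in 11 of 23 glycolysis members and 13 of 16 HIF members, against 53.2% of all genes, with medians of -0.01 and +0.23 against +0.01. Among 22 members with 2 or more readable probe sets, 10 had probe sets that disagreed in sign at 12 h, against 4 at 48 h. The signs at 12 h thus depend in part on the probe set used. In 7 members (ERO1A, PDK1, ALDOA, KDM3A, VEGFA, GPI and ANKRD37) every Fk array was above every control array, against 9.91% of all genes, and in 0 every Fk array was below, against 6.49%. With Fk at 12 h replicate 3 left out, 18 of 23 glycolysis members and 11 of 16 HIF members had a difference above 0, and the medians became +0.10 and +0.16, against +0.03 over all genes. With 2 Fk arrays, 15 members lay above the 3 control arrays, or 38.5%, against 21.7% of all genes, and 2 lay below, against 15.5%. COL1A1, a fibroblast marker, was also higher on every Fk array at 12 h, with 8.64, 8.88 and 8.21 in Fk cultures, against 8.18, 8.12 and 8.09 in control cultures. Its difference was +0.45 (unadjusted p 0.0382, adjusted p 0.737), or +0.63 without replicate 3 (adjusted p 0.454). DCN, the other readable fibroblast marker, differed by +0.22 (adjusted p 0.952), or by -0.15 without replicate 3. The part of these markers in the 12 h results was not tested.

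ERO1A read 11.21, 11.40 and 11.45 in Fk cultures at 12 h, against 10.99, 11.03 and 10.98 in control cultures, a difference of +0.35 (interval 0.08 to 0.62, adjusted p 0.673). The second probe set of ERO1A by brightness differed by -0.19 at this time, so the separation held for the probe set used here and not for every one. PDK1 read 8.52, 8.77 and 8.68 in Fk cultures, against 8.32, 8.02 and 8.37 in control cultures, a difference of +0.42 (interval 0.05 to 0.78, adjusted p 0.710). PDK1 and ERO1A were the 2 members in which every Fk array was above every control array at both times, against 1.00% of all genes. No member was below at both times, against 0.529%. ALDOA, an aldolase, read 13.73, 13.70 and 13.63 in Fk cultures, against 13.24, 13.32 and 13.46 in control cultures, and the difference was +0.35 (adjusted p 0.739). GPI, the phosphoglucose isomerase, read 11.49, 11.34 and 11.38 in Fk cultures, against 11.14, 10.87 and 11.32 in control cultures, a difference of +0.29. Without Fk at 12 h replicate 3 the differences were +0.30 for ERO1A, +0.41 for PDK1, +0.37 for ALDOA and +0.30 for GPI (adjusted p 0.607, 0.650, 0.616 and 0.782).

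SLC2A1 did not separate at 12 h. It read 7.83, 7.75 and 8.13 in Fk cultures, against 8.25, 7.83 and 8.08 in control cultures, a difference of -0.15 (interval -0.47 to 0.17, adjusted p 0.842), or -0.26 without Fk at 12 h replicate 3 (adjusted p 0.713). VEGFA read 10.44, 10.19 and 10.42 in Fk cultures, against 10.13, 9.97 and 10.05 in control cultures, a difference of +0.30 (adjusted p 0.759). The Fk arrays of VEGFA were all the higher ones. NDRG1 differed by +0.28, HIF1A by -0.14 and EPAS1 by -0.15. Without Fk at 12 h replicate 3 these were +0.26 for VEGFA, +0.30 for NDRG1, +0.0203 for HIF1A, whose sign turned, and -0.0299 for EPAS1. ADM differed by +1.02, but this rested on 1 array: it read 6.38, 6.28 and 10.30 in Fk cultures, against 6.94, 6.39 and 6.58 in control cultures, and without Fk at 12 h replicate 3 the difference was -0.30. Likewise ANKRD37, an ankyrin repeat gene that HIF induces, read 6.49, 6.48 and 8.90 in Fk cultures, against 6.39, 6.31 and 6.47 in control cultures. It differed by +0.90 with that array and +0.09 without it, and KDM3A, a histone demethylase, by +0.58 and +0.18. CA12 read 7.39, 8.12 and 6.29 in Fk cultures, against 7.20, 6.88 and 6.53 in control cultures. CA12 and PFKFB4, a bifunctional enzyme that sets the level of the activator of phosphofructokinase, gave larger differences without that array, +0.89 and +0.99, against +0.40 and +0.64 with it. Neither passed without it (adjusted p 0.490 and 0.516), and over the fits that left out 1 array the difference of CA12 was -0.0299 to +0.89, lowest without replicate 2.

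**Figure D2:**
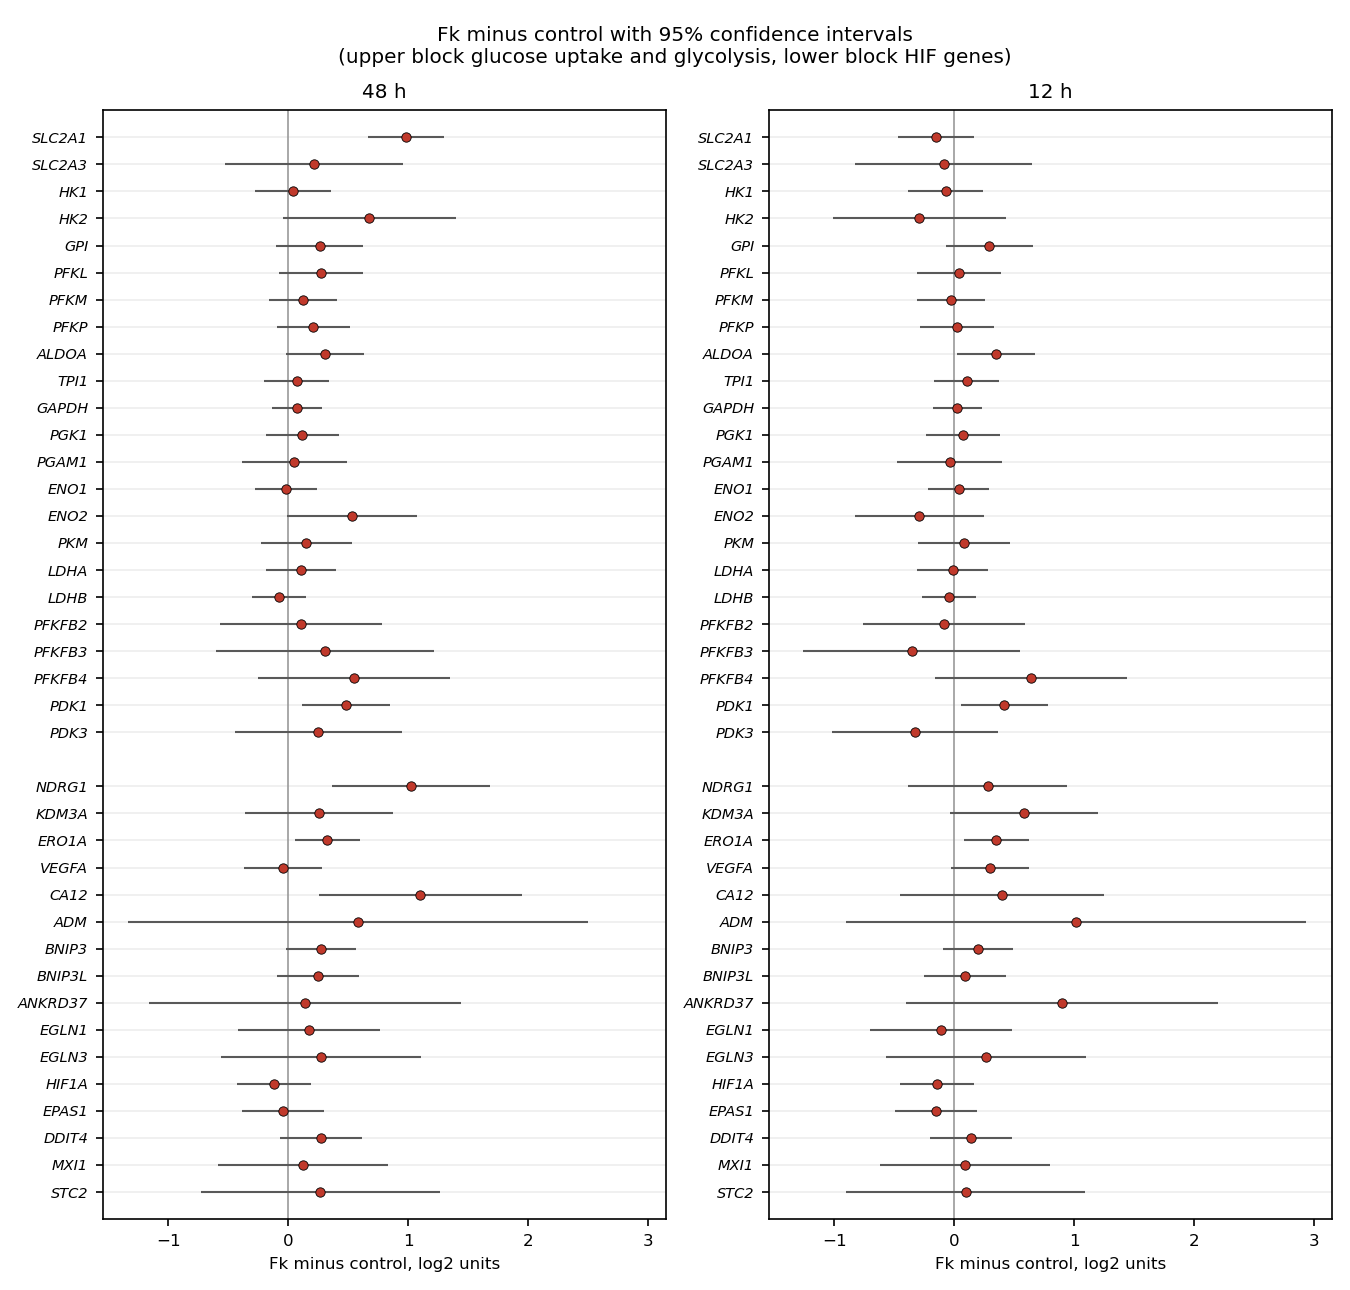
Fk minus control in log2 units for the 39 tested members at 48 h (left) and 12 h (right), with limma's 95% confidence interval as a line; glycolysis members are above the gap and HIF members below it. The median lies at +0.21 and +0.26 at 48 h and at -0.01 and +0.23 at 12 h, and SLC2A1 at 48 h has an interval from 0.67 to 1.30.

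The difference between the Fk effects, at 48 h minus at 12 h, was tested for each gene. For SLC2A1 it was +1.14 (interval 0.69 to 1.58, unadjusted p 0.000192), but the adjusted p was 0.996, and limma called 0 of 10784 genes, or 0%, with 357, or 3.31%, at an unadjusted p under 0.05. ENO2 (+0.82) was the only other member at that unadjusted level, and HK2 (+0.97), NDRG1 (+0.74) and VEGFA (-0.34) came next. Without Fk at 12 h replicate 3 the difference was +1.25 for SLC2A1 (adjusted p 0.332) and +0.49 for HK2. For HIF1A it was -0.12 minus -0.14, a difference of +0.03, and for EPAS1 +0.11. Averaged over both times, limma called 1 gene, or 0.00927%, which was no member, and 856 genes, or 7.94%, had an unadjusted p under 0.05. Of the members 9 did, all higher in Fk cultures: SLC2A1 (+0.42, adjusted p 0.296), ERO1A (+0.34), PDK1 (+0.45), ALDOA (+0.33), NDRG1 (+0.65), CA12 (+0.75), BNIP3 (+0.24), GPI (+0.28) and PFKFB4 (+0.59). The average effect of HIF1A was -0.13 (interval -0.35 to 0.09) and that of EPAS1 -0.10.

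The second comparison asks how the same genes differed between 48 h and 12 h, within Fk cultures and within control cultures. Here many genes passed. Limma called 2500 of 10784 genes, or 23.2%, in Fk cultures (11.5% higher and 11.7% lower at 48 h) and 2314, or 21.5%, in control cultures (10.6% and 10.9%). Of the 39 members 17 passed in Fk cultures, 16 higher and 1 lower at 48 h, and 12 in control cultures, 11 higher and 1 lower. At an unadjusted p under 0.05 the members counted 23 in Fk cultures and 21 in control cultures, against 37.7% and 36.4% of all genes. The 48 h arrays lay wholly above the 12 h arrays in 19 members in Fk cultures (19.0% of all genes) and 19 in control cultures (25.1%), and wholly below in 6 (19.7%) and 4 (24.9%). The 12 of the control cultures were all among the 17 of the Fk cultures. Of all genes, 7.06% were called higher in both comparisons and 7.55% lower in both. HK2, PFKM, ENO2, CA12 and HIF1A passed in Fk cultures and not in control cultures. The difference between the comparisons is the difference between the Fk effects given above, and in none of these 5 did it pass (adjusted p 0.996). COL1A1, a fibroblast marker, fell by 0.87 in Fk cultures between the times (adjusted p 0.0104) and differed by -0.23 in control cultures (adjusted p 0.411). DCN, the other readable fibroblast marker, differed by +0.31 in Fk and -0.12 in control cultures (adjusted p 0.718 and 0.904). The part of these markers in these results was not tested.

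SLC2A1 rose to 9.88, 9.85 and 10.11 in Fk cultures at 48 h, against 7.83, 7.75 and 8.13 at 12 h. The change was +2.04 (interval 1.73 to 2.36), or 4.12-fold, with an adjusted p of 9.48e-05. In control cultures it read 8.98, 8.97 and 8.94 at 48 h, against 8.25, 7.83 and 8.08 at 12 h, a change of +0.91 (interval 0.59 to 1.22), or 1.87-fold, with an adjusted p of 0.00292. No 48 h array overlapped a 12 h array in either. SLC2A3 rose by 1.89 log2 units, or 3.69-fold, in Fk cultures (adjusted p 0.00439) and by 1.58, or 3.00-fold, in control cultures (adjusted p 0.00997). PDK1 rose by 0.79 in Fk and 0.73 in control cultures (adjusted p 0.00854 and 0.0131), but with the mean of its probe sets the change in control cultures was +0.42 and did not pass (adjusted p 0.0765). PFKFB2, a relative of PFKFB4, rose by 1.53 in Fk and 1.34 in control cultures (adjusted p 0.00715 and 0.0135). Its other readable probe sets differed by less, by +0.12 and +0.39 in Fk and +0.07 and +0.98 in control cultures. In Fk cultures HK2 rose by 1.46 (adjusted p 0.0118) and ENO2 by 1.53 (adjusted p 0.00278). Their changes in control cultures were +0.49 and +0.71 (adjusted p 0.0612 for ENO2). The fainter probe sets of HK2 differed by +0.54 and +0.38 in Fk cultures and by +0.18 and -0.30 in control cultures, so they disagreed in sign there. Without Fk at 12 h replicate 3 the change in Fk cultures was +0.97 for HK2 and +1.28 for ENO2 (adjusted p 0.0023 and 0.00362), and both then passed in control cultures (adjusted p 0.0196 for HK2 and 0.0205 for ENO2).

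The enzymes that run from aldolase to lactate gave other values. Of the 10 tested, 7 had a difference below 0 in Fk cultures and 8 in control cultures, with medians of -0.23 and -0.24, against +0.02 and +0.01 over all genes. Of the 7 transporters and regulators (SLC2A1, SLC2A3, PFKFB2, PFKFB3, PFKFB4, PDK1 and PDK3), 6 had a difference above 0 in each, with medians of +0.79 and +0.73. These subsets were set after the values were seen. PKM, pyruvate kinase, was the only member called lower in this fit, and settings that called others lower are given below. It read 12.99, 12.90 and 13.28 in Fk cultures at 48 h, against 13.84, 13.75 and 13.33 at 12 h, and 12.81, 12.75 and 13.16 in control cultures at 48 h, against 13.40, 13.61 and 13.65 at 12 h. The 48 h arrays lay below the 12 h arrays in both, and PKM fell by 0.58 in Fk and 0.65 in control cultures (adjusted p 0.0352 and 0.0247). PGAM1, phosphoglycerate mutase, differed by -0.51 and -0.59 (adjusted p 0.0883 and 0.0553). GAPDH, TPI1, PGK1, ENO1, LDHA and LDHB differed by -0.29 to +0.16, and the probe sets of GAPDH disagreed in sign. The 4 other readable probe sets of PGK1, phosphoglycerate kinase, differed by -0.30 to -0.97 in Fk and -0.38 to -0.89 in control cultures, against -0.24 and -0.29 for the brightest one, which was used. Several of these genes are read by probe sets that may also bind transcripts of close relatives or processed pseudogenes.

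**Figure D3:**
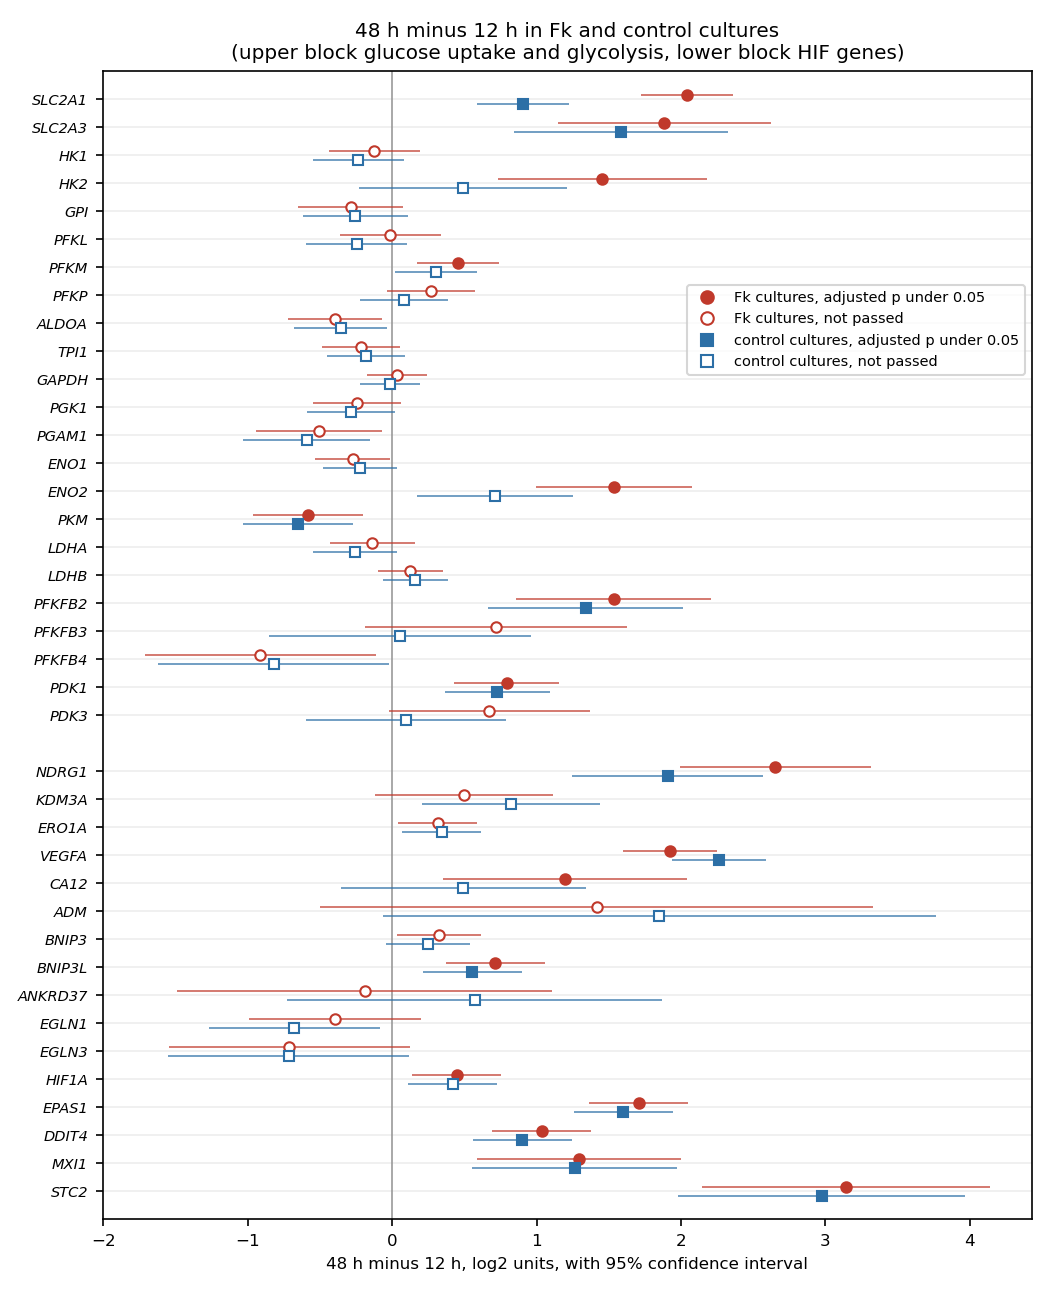
Difference between 48 h and 12 h in log2 units for the 39 tested members, in Fk cultures (circles) and control cultures (squares), with limma's 95% confidence interval; filled symbols passed an adjusted p of 0.05. The filled symbols lie right of 0 for 16 members in Fk cultures and 11 in control cultures, and PKM is left of it in both.

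Among the HIF members, 9 of 16 rose in Fk cultures and 7 of 16 in control cultures between 12 h and 48 h, against 11.5% and 10.6% of all genes, and 0 were called lower, against 11.7% and 10.9%. The medians were +0.87 and +0.70. STC2, whose window is shown above, had the largest change of any member. It read 9.04, 9.68 and 9.64 in Fk cultures at 48 h, against 6.58, 5.22 and 7.12 at 12 h, and 8.80, 9.33 and 9.44 in control cultures at 48 h, against 6.47, 5.56 and 6.61 at 12 h. In both, every 48 h array was far above every 12 h array, beside a wide spread among the 12 h arrays. STC2 rose 8.83-fold in Fk (adjusted p 0.0017) and 7.86-fold in control cultures (adjusted p 0.00252). VEGFA read 12.39, 12.25 and 12.18 in Fk cultures at 48 h, against 10.44, 10.19 and 10.42 at 12 h, and 12.53, 12.42 and 12.00 in control cultures at 48 h, against 10.13, 9.97 and 10.05 at 12 h. It rose 3.80-fold in Fk (adjusted p 9.54e-05) and 4.80-fold in control cultures (adjusted p 8.69e-05), and its 4 readable probe sets were all higher at 48 h, by 1.64 to 2.59 log2 units. NDRG1 rose 6.28-fold in Fk and 3.75-fold in control cultures (adjusted p 0.000676 and 0.0028), DDIT4 2.05-fold and 1.87-fold, MXI1, a partner of MAX that opposes MYC, 2.45-fold and 2.40-fold, and BNIP3L 1.64-fold and 1.47-fold.

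EPAS1, which encodes HIF-2α, rose in both. It read 13.35, 13.45 and 13.44 in Fk cultures at 48 h, against 11.86, 11.80 and 11.46 at 12 h, and 13.50, 13.69 and 13.17 in control cultures at 48 h, against 11.94, 11.72 and 11.91 at 12 h. The change was +1.71 (interval 1.36 to 2.05), or 3.26-fold, in Fk cultures and +1.60 (interval 1.26 to 1.94), or 3.03-fold, in control cultures, with adjusted p of 0.000273 and 0.000457. HIF1A, which encodes HIF-1α, had smaller differences. It read 14.41, 14.52 and 14.44 in Fk cultures at 48 h, against 14.19, 14.16 and 13.68 at 12 h, and 14.49, 14.62 and 14.61 in control cultures at 48 h, against 14.17, 14.23 and 14.07 at 12 h. The change was +0.45 in Fk (adjusted p 0.0414) and +0.42 in control cultures (adjusted p 0.0547). The prolyl hydroxylase gene EGLN1 differed by -0.40 in Fk and -0.68 in control cultures (adjusted p 0.0954 for control), and EGLN3 by -0.71 and -0.72. KDM3A differed by +0.50 and +0.82, ERO1A by +0.32 and +0.34, and BNIP3 by +0.32 and +0.25, none of which passed. Without Fk at 12 h replicate 3 the changes in Fk cultures were -0.79 for EGLN1 (adjusted p 0.0025), -0.36 for EGLN3 (adjusted p 0.485), +0.90 for KDM3A (adjusted p 0.00279) and +0.28 for HIF1A (adjusted p 0.0595).

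**Figure D4:**
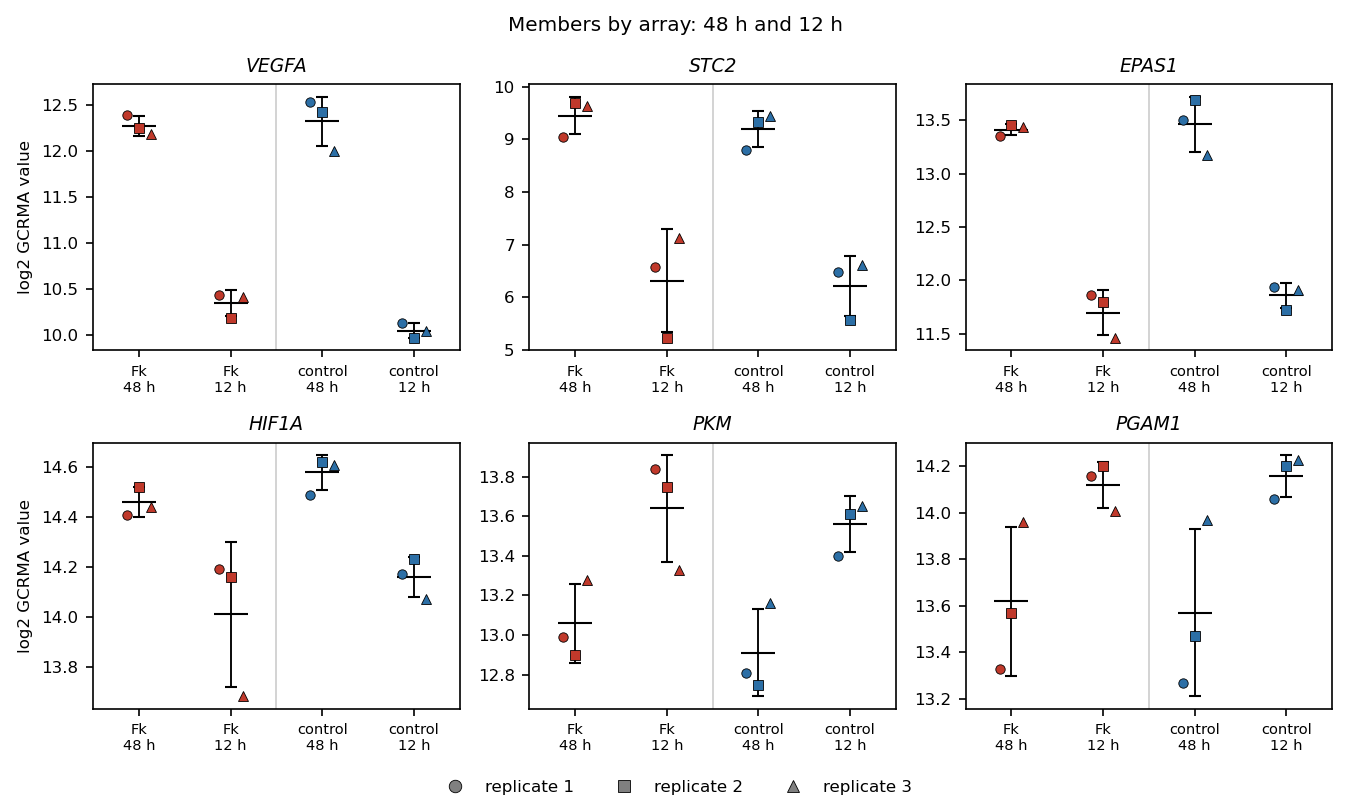
Log2 GCRMA values of 6 members on each array, with the groups on the x axis in pairs of 48 h and 12 h, first for Fk and then for control cultures; points are arrays, and the black bars are the mean and SD of 3 arrays. VEGFA lies between 12.00 and 12.53 at 48 h and between 9.97 and 10.44 at 12 h, while PKM is lower at 48 h.

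Some of these calls ended when 1 array was left out. In the 12 fits that each left out 1 array, SLC2A1, SLC2A3, VEGFA, EPAS1, STC2, NDRG1 and DDIT4 passed in all 12 in both comparisons. In Fk cultures CA12 passed in 1 of the 12, the fit without Fk at 12 h replicate 2, with an adjusted p of 0.0545 to 0.138 in the others. HIF1A passed in 2, without Fk at 12 h replicate 1 or 2, with 0.0506 to 0.119 in the others. Leaving out a control array kept the changes in Fk cultures at +1.20 for CA12 and +0.45 for HIF1A. Such an array enters that comparison only through the shared estimate of the spread and the adjustment over genes. PKM passed in 6 fits, PFKM in 8 and MXI1 in 9, and these calls ended without an Fk array at 12 h (replicate 1 or 2) or at 48 h (replicate 1, and for PKM and PFKM also 2), and for PKM also without control replicate 2 or 3 at 12 h. In control cultures BNIP3L passed in 7 fits, PKM in 8, MXI1 in 9, PDK1 in 10 and PFKFB2 in 11, and the calls ended without a control array, with adjusted p of 0.0516 to 0.110. These were replicates 1, 2 or 3 at 12 h or 1 or 2 at 48 h for BNIP3L, 2 or 3 at 12 h or 1 or 2 at 48 h for PKM, 2 or 3 at 12 h or 1 at 48 h for MXI1, 2 at 12 h or 1 at 48 h for PDK1, and 3 at 12 h for PFKFB2. Leaving out Fk at 12 h replicate 3 raised the members called to 19 in Fk cultures and 20 in control cultures, with 2787 and 3438 genes called. Added in both were ADM and KDM3A, which were higher at 48 h, and EGLN1, which was lower (-0.79 in Fk and -0.68 in control cultures). PFKFB4 was then called lower in Fk cultures (-1.27, adjusted p 0.0236) and PGAM1 in control cultures (adjusted p 0.0462). This array enters the control comparison only through the shared estimate of the spread. Settings that kept all arrays also ended calls. With each pair of groups fitted alone, BNIP3L, CA12, HIF1A, HK2, MXI1, PDK1, PFKM and PKM did not pass in Fk cultures (adjusted p 0.0552 to 0.157). In Fk cultures CA12 and PKM did not pass with no filter or the mean of probe sets, CA12 without _s_at and _x_at probe sets, and HIF1A with no filter or median centring. MXI1 did not pass in control cultures with no filter (adjusted p 0.0536). Other members were called lower at 48 h under some settings: EGLN3 in both comparisons with the replicate block, EGLN1 in both with the mean of probe sets and in control cultures with those groups fitted alone, and 8 members in Fk and 9 in control cultures with array weights. Array weights called 5345 genes in Fk and 4920 in control cultures, in either direction. ALDOA was called lower in Fk cultures with the mean of probe sets, and ALDOA and ENO1 with trend and robust moderation. PGAM1 was called lower in control cultures with the replicate block, the mean of probe sets or trend and robust moderation. Without control at 48 h replicate 3, ALDOA and PGAM1 were called lower in both comparisons and HK1 in control cultures, and without Fk at 48 h replicate 3 PGAM1 was called lower in both.

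That array departed from its mates in 12 of the 39 members by more than 1 log2 unit. ADM deviated by +3.97 and ANKRD37 by +2.42, followed by STC2 (+1.22), KDM3A (+1.20) and EGLN3 (+1.07). CA12 (-1.47), HK2 (-1.45), PDK3 (-1.33), PFKFB3 (-1.28), EGLN1 (-1.18), SLC2A3 (-1.12) and PFKFB4 (-1.06) lay below. On the other arrays 0 to 4 members deviated so far. The enzymes from GAPDH to LDHB deviated by -0.76 to +0.05. The GAPDH control probe sets at the 3′ and 5′ ends differed by 0.006 on this array, against -0.073 to 0.015 on the others. What set it apart was not tested.

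**Figure D5:**
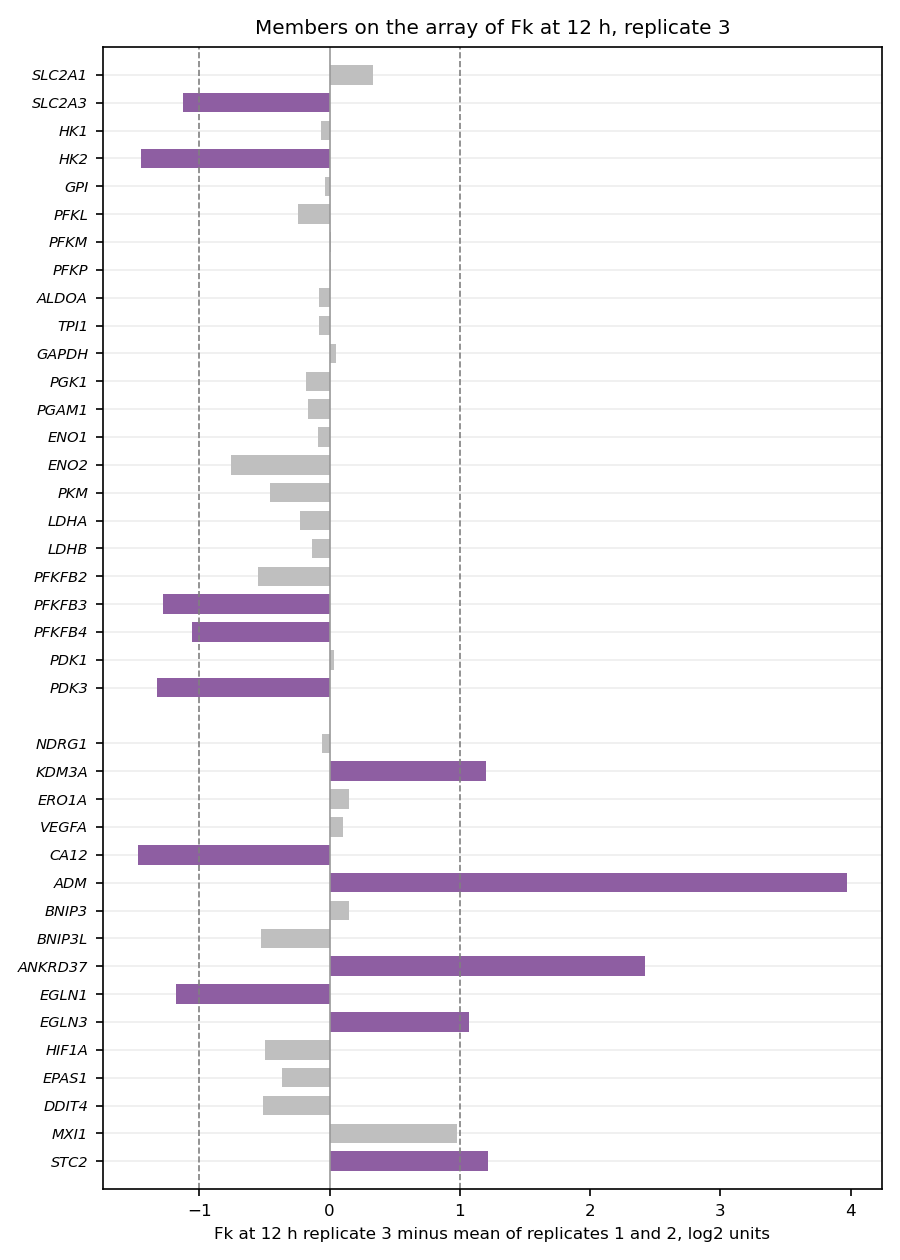
Value of each tested member on the array of Fk at 12 h replicate 3 minus the mean of replicates 1 and 2, in log2 units; purple bars exceed 1 in either direction, which the dashed lines mark. The bar of ADM reaches +3.97 and that of CA12 -1.47.

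Other genes of the same pathways were taken from 2 wider lists. The first holds 51 genes of pyruvate fate, the pentose phosphate pathway, glycogen, gluconeogenesis and other sugar carriers, of which 37 were tested. In Fk cultures limma called 11 higher and 1 lower at 48 h than at 12 h, against 11.5% and 11.7% of all genes, and in control cultures 8 higher and 0 lower, against 10.6% and 10.9%. MPI, which links fructose and mannose phosphates, rose by 1.34 in Fk and 1.51 in control cultures (adjusted p 0.00814 and 0.00509). PCK2, the mitochondrial enzyme that makes phosphoenolpyruvate, rose by 1.81 and 2.02, HKDC1, a hexokinase relative, by 1.90 and 1.84, and GFPT1, the entry to the hexosamine pathway, by 1.51 in both. SLC2A6, a transporter of the GLUT family, fell by 1.08 in Fk cultures (adjusted p 0.00932), with -0.66 in control cultures (adjusted p 0.0625). Between Fk and control cultures 0 of the 37 passed in limma at either time. At an unadjusted p under 0.05 there were 3 at 48 h and 1 at 12 h, against 5.18% and 6.71% of all genes, and BSG, a chaperone of lactate carriers, differed by +0.53 at 48 h and +0.45 at 12 h.

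The second list holds 40 genes of the HIF machinery and further targets, of which 31 were tested. At 48 h 0 passed between Fk and control cultures in limma, with 7 at an unadjusted p under 0.05 (5.18% of all genes), and 0 passed at 12 h, with 4 (6.71%). TFRC, the transferrin receptor, had the smallest p at 48 h, with a mean of 11.41 in Fk and 12.55 in control cultures, a difference of -1.13 (adjusted p 0.0976). P4HA2 and P4HA1, which encode collagen prolyl hydroxylases, differed by +0.86 and +0.82 (adjusted p 0.382 and 0.568), and SPAG4 by +1.03. Over time 7 rose and 3 fell in Fk cultures, against 11.5% and 11.7% of all genes, and 5 rose and 3 fell in control cultures, against 10.6% and 10.9%. NFIL3, a transcription factor, rose by 2.25 in Fk and 2.12 in control cultures (adjusted p 7.1e-05 and 8.84e-05), BHLHE41, another, by 1.64 and 2.37, and RBCK1, a subunit of a ubiquitin ligase, by 1.47 and 1.27. TFRC fell by 1.43 in Fk (adjusted p 0.000676) and by 0.62 in control cultures (adjusted p 0.0239). PLAUR, the urokinase receptor, fell by 1.88 in control cultures (adjusted p 0.0113), and its change in Fk cultures was -0.89 (adjusted p 0.14).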

How the data were processed

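RNA of HK-2 cells was measured on 12 Affymetrix arrays, 3 in each of 4 groups set by the labels. The authors deposited log2 values for 54675 probe sets, made with GCRMA per the submitters' processing notes; the log2 scale was read from the values. GCRMA removes background by probe sequence and quantile normalizes, so its lowest values are not shown to be above background. The version is not given in the sources used here. GEO's platform annotation gives 1 gene symbol to 41097 probe sets, several to 1801 and none to 11777.

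The probe set with the highest mean among those with 1 symbol stood for its gene, and a gene was tested if 3 or more arrays read 4 or more on the log2 scale. Tests used limma 3.58.1 (R 4.3.3) on a model of the 4 group means, where residual degrees of freedom were 8 and prior ones 2.44. P-values are two-sided and had Benjamini-Hochberg adjustment over 10784 genes, with a threshold of 0.05. There were 6 contrasts: Fk against control cultures at each time, the difference and the mean of these, and 48 h minus 12 h in Fk and in control cultures. The half-width of the 95% interval of the Fk effect at 12 h had a median of 0.447 over genes. The number of arrays and the spread between them limit the precision.

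Members and lists were chosen with earlier results of these data known. In each contrast the 6 members of either group with the smallest p, and in the Fk contrasts also SLC2A1, HIF1A and EPAS1, were followed through the alternatives; array values were given for those the results turn on and differences for the rest, and up to 4 genes of each wider list were named by p. In all, 22 other settings were run, of which 12 left out 1 array. The others were array weights, no filter or one at 6, the mean of probe sets, no _s_at or _x_at probe sets, median centring, quantile normalization again, the replicate block, trend and robust moderation, and the groups compared alone. The replicate block differed by contrast. In the Fk contrasts each block held the Fk and control arrays of the same time and replicate number. In the contrasts over time the replicate number was a factor shared by all groups. The fit was tested on simulated data. Tables and figures used pandas 2.3.3 and matplotlib 3.10.9 in Python 3.11.15.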

Additional observations from a re-analysis of the deposited data

How the results depend on the processing

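Of the values followed for single members, 11 reversed under the settings that kept all arrays. With the mean of probe sets, EPAS1 gave +0.087 at 12 h, -0.105 for the difference of the Fk effects and +0.0345 for their mean, and PDK3 and EGLN1 gave -0.0314 and -0.0735 for that difference. Without _s_at and _x_at probe sets ERO1A gave -0.19 at 12 h. Array weights gave -0.25 for ADM and +0.0075 for HIF1A at 12 h, and -0.15, -0.0984 and -0.0912 for EGLN1, HIF1A and EPAS1 in the difference. When each array was left out in turn, signs also turned for some of the members followed in a contrast, and for CA12, which was not followed at 12 h. At 12 h these were ADM (-0.30 to 1.70), HIF1A (-0.23 to 0.0203) and CA12 (-0.0299 to 0.89), and at 48 h EPAS1 (-0.19 to 0.0744). In the difference they were ANKRD37 (-1.17 to 0.0448), KDM3A (-0.54 to 0.0761), EGLN1 (-0.11 to 0.52), HIF1A (-0.14 to 0.12) and EPAS1 (-0.0357 to 0.23). All of these turned without Fk at 12 h replicate 3, apart from CA12, which turned without Fk at 12 h replicate 2, and EPAS1 at 48 h, which turned without control at 48 h replicate 2. The difference also turned for HIF1A without Fk at 48 h replicate 2, control at 12 h replicate 2 or control at 48 h replicate 1, and for EPAS1 without control at 48 h replicate 3. Members not followed in a contrast turned as well, such as VEGFA (-0.20 to 0.064) and SLC2A3 (-0.0501 to 0.44) at 48 h. At 12 h HK2 (-0.59 to 0.19), STC2 (-0.31 to 0.64) and BNIP3L (-0.02 to 0.26) were among them.

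Array weights called 156 genes at 12 h, 94 at 48 h and 527 over both times, with 1 member of each group at 48 h (SLC2A1 and CA12) and 2 of each over both (PDK1, ALDOA, CA12 and DDIT4), and medians of +0.065 (glycolysis, 12 h), +0.16 (HIF, 48 h) and +0.10 (HIF, both). Over time they called 5345 genes in Fk and 4920 in control cultures, with 14 glycolysis members in each and 14 and 13 HIF members. The replicate block gave 1 call at 12 h and 0 over both times; it called no member in the Fk contrasts, called PGAM1 lower over time in control cultures (adjusted p 0.0379) and EGLN3 lower in Fk and control cultures (adjusted p 0.0382 and 0.0391), ended no member's call and moved no count of member calls by over 1.5 times. The labels do not say what a replicate number shares, and the main fit did not use the numbers as pairs. Deviations of same-numbered Fk and control arrays correlated at 0.041, 0.265 and 0.163 at 12 h. At 48 h they correlated at 0.798, -0.025 and 0.606. Replicate 1 of either group set against replicate 3 of the other gave -0.703 and -0.699 at 48 h. Deviations within a group sum to 0, so these values follow in part from the same-numbered ones and add little to them. By the same-numbered values, replicates 1 and 3 shared deviations by number at 48 h. At 48 h the count of called genes was 1 with no filter, a filter at 6 or the groups compared alone, and 4 with the mean of probe sets; over both times it was 0 with no filter or with trend and robust moderation and 2 with the mean of probe sets. Without _s_at and _x_at probe sets the HIF median at 12 h was +0.0897, and 5 glycolysis and 5 HIF members were called over time in Fk cultures and 3 and 4 in control cultures. In that setting the counts of all genes called over time stayed within 1.5 times those of the main fit. The HIF medians over time were +0.71 and +0.57 (no filter, and without those probe sets), +1.03 and +0.82 (filter at 6) and +0.75 and +0.48 (mean of probe sets) in Fk and control cultures. The groups compared alone called 831 genes in Fk cultures, with 4 glycolysis and 5 HIF members, and 12 HIF members in control cultures. The count of all genes called in control cultures then stayed within 1.5 times that of the main fit.

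Leaving out 1 array at a time gave 0 to 3 called genes at 12 h, 0 to 1 at 48 h and 0 to 2 over both times. The glycolysis median was -0.0378 to 0.0987 at 12 h, the HIF median 0.17 to 0.32 at 48 h, and the glycolysis median of the difference 0.0323 to 0.25. Over time, 1297 to 2787 genes were called in Fk cultures, lowest without Fk at 48 h replicate 1 and 1422 without its replicate 2, and 1060 to 3438 in control cultures. The control count was 1290, 1166 and 1060 without control at 12 h replicate 1, 2 and 3, and 1084 and 1138 without control at 48 h replicate 1 and 2. In control cultures 3 to 8 glycolysis and 5 to 12 HIF members were called, highest for HIF without Fk at 12 h replicate 3, and the HIF median was 0.63 to 0.87; in Fk cultures that median was 0.78 to 0.89.

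Of the single-member values, 712 kept direction and side of the threshold with all arrays used and 934 with 1 left out. The cause of the changes was not tested. With 3 arrays a group, the 95% interval of the Fk effect at 12 h had a median half-width of 0.447 over genes.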
